A study of Mus musculus with 2 samples.

Results

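Hepcidin, its regulators and the proteins that take up, carry, export and store iron were taken as a set of 10 genes: Hamp, Hfe2, Hfe, Tmprss6, Tfr2, Tfrc, Slc40a1, Trf, Fth1 and Ftl1. They were chosen by name from 37310 annotated mouse genes, with earlier results of these data known. A GATA4 occupied site (OS) was assigned to a gene when its midpoint lay in the gene body or within 50 kb of either end. Of the 4409 GATA4 OS in the list common to both peak callers, 13 met this rule, and they lay at 6 of the 10 genes. Hfe2, Slc40a1 and Fth1 had 3 OS each, Trf had 2, and Tfr2 and Tfrc had 1 each. Hamp, Hfe, Tmprss6 and Ftl1 had none.

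The sites come from ChIP-seq on whole livers, taken from mice on a mixed C57BL/6 x Sv129 background and aged 2-3 months. Fixed and sheared chromatin was precipitated with the antibody C-20 against GATA4 (sc-1237, Santa Cruz), and DNA of the same tissue that was not precipitated (input DNA) served as the control. The labels name 1 ChIP sample and 1 input sample, and the methods name biological replicates made from pooled animals. The peaks were selected by the concordance of their ranks between replicates, and the lists do not separate the replicates. There was therefore no replicate error for any peak, and all values are descriptions of 1 set of called peaks per list. The score was 1000 for every peak, so no peak height was at hand. The number that each peak carries in its list is given as its position, and the files do not say what the numbering follows. Read depth at each gene was not in the lists, so a gene without a listed peak is one where none was called. This does not show absence of GATA4.

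Iron balance is set by hepcidin, a small peptide that hepatocytes secrete and that binds the iron exporter ferroportin and causes its removal from the cell surface. Hepatocytes raise Hamp transcription when bone morphogenetic proteins, many of them made by liver sinusoidal endothelial cells, act on receptors aided by hemojuvelin, and when iron-loaded transferrin is sensed through HFE and transferrin receptor 2. GATA4 is a zinc finger factor that binds WGATAR, where W is A or T and R is A or G, so a match reads as AGATAA, or as AGATAG, or with T in first place as TGATAA or else as TGATAG, on either strand. Whole liver holds hepatocytes, endothelial cells and macrophages (Kupffer cells), which all handle iron, so the cell type in which a given OS was bound cannot be told from these data. The paper deleted Gata4 in hepatocytes and reports loss of GATA4 from the sites examined, at factor X, FOG1, HNF4α and HNF6. It concludes that GATA4 occupied those genes in hepatocytes only. None of them is in the set described here.

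Sequences of 5 of the 13 OS are given first, each chosen for the reason named beside it. All are the plus strand of mm9, 5′ to 3′, and capitals mark WGATAR or its complement. The first pair lies beyond the 3′ end of Slc40a1 at chr1:45954979-45955231 (position 72) and chr1:45961978-45962274 (position 969). They are shown whole, since they are the pair closest to the ferroportin gene.
Slc40a1 position 72: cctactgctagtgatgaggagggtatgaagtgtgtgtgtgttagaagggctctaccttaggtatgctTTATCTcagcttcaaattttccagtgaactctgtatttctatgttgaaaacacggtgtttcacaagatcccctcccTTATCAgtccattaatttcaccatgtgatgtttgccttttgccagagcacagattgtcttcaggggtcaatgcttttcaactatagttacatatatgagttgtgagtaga
Slc40a1 position 969: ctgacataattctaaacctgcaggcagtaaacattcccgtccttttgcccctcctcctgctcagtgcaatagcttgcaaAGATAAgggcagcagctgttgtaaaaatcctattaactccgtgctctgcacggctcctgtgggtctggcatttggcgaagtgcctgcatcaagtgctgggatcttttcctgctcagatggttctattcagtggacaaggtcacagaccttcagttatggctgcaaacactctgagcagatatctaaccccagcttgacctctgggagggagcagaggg
The next is the middle 121 bp, chr9:103130819-103130939, of the OS in the first intron of Trf, shown because it is the OS that lay inside a gene of the set.
Trf position 2790: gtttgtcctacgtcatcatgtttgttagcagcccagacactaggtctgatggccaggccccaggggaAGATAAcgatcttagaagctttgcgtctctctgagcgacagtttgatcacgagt
The last pair shows an OS with WGATAR beside one without it. The OS at chr3:96377916-96378109, downstream of Hfe2, holds the motif in both orientations, whereas the OS upstream of Fth1 at chr19:10051741-10051862 holds only the 5-base form gataa.
Hfe2 position 1025: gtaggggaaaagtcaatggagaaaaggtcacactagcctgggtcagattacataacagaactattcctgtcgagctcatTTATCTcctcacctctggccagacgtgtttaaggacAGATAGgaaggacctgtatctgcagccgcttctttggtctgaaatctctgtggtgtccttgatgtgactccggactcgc
Fth1 position 2513: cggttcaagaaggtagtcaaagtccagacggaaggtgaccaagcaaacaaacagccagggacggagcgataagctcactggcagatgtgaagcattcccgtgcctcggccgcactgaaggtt

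The 6 genes with an OS were 60% of the set. By the same rule 27.7% of 22380 protein-coding genes (Wilson 95% interval 27.1% to 28.3%) and 23.1% of all 37310 annotated genes had an OS. The genes of the set were not long, with a median body of 13173 bp against 15420 bp for protein-coding genes. Among the 14833 protein-coding genes no longer than the longest of the set (28967 bp, Tmprss6), 24.4% had an OS. The 13 OS fell in 1.13 Mb of gene bodies and flanks, which is 11.5 OS per Mb, whereas 3839 OS fell in the 1650 Mb covered by the bodies and flanks of protein-coding genes, which is 2.33 per Mb. Most of the 13 OS lay at Hfe2, Slc40a1 and Fth1. These 3 of the 10 genes had 3 OS each, a number reached or passed by 3.24% of protein-coding genes. The 10 genes were chosen by name with earlier results of these data known, so these shares may not be independent of the choice. With 10 such genes and 1 set of called peaks, no test was made of these shares.

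A shorter reach can only lower these counts, for the set and for protein-coding genes alike. At a reach of 10 kb, 3 of the 10 genes (Slc40a1, Trf and Fth1) had an OS, compared with 13.7% of protein-coding genes. In the gene body itself 1 of the 10 (Trf) had an OS, against 7.67% of protein-coding genes, and the 1 gene is too few to set against that share. The start of a gene of the set was the nearest protein-coding start for 5 of the 13 OS, at 3 of the 10 genes (Slc40a1, Trf and Fth1), and 12.3% of protein-coding genes were the nearest to at least 1 OS within reach. The other 8 OS lay nearer to the start of another gene, and those at Hfe2, Tfr2 and Tfrc all belong to this group.

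**Figure D1:**
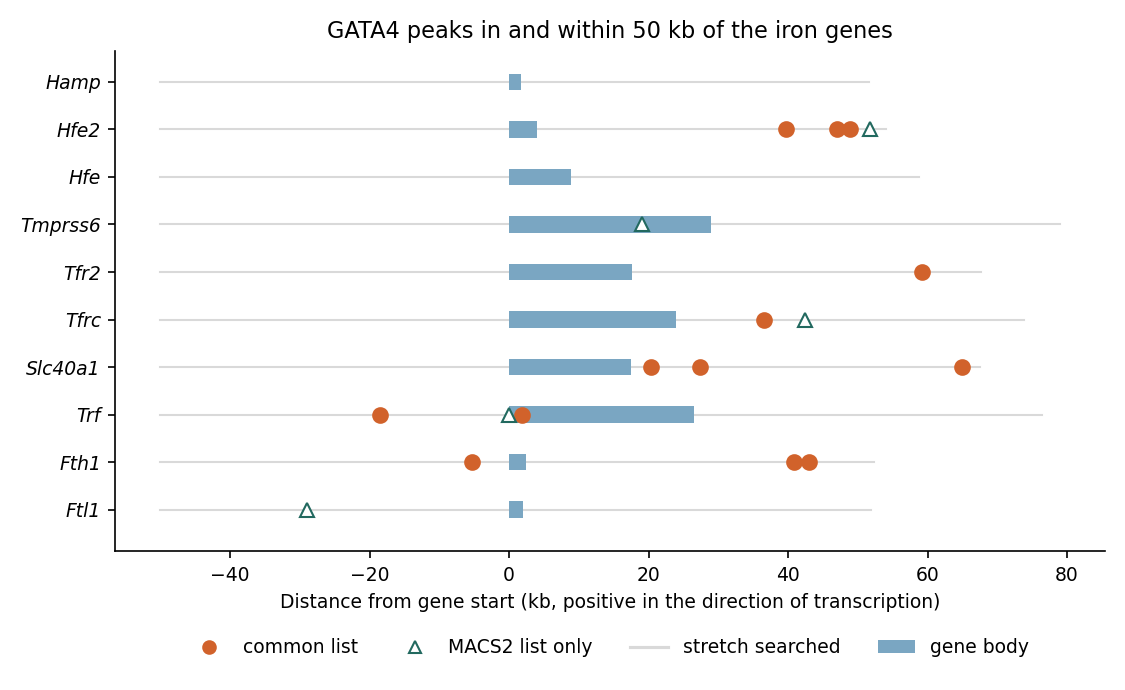
GATA4 peaks in and around the 10 iron genes, with the distance from the gene start in kb on the x axis (positive in the direction of transcription) and 1 line per gene. Filled circles are the 13 OS of the common list, open triangles the 5 peaks that only MACS2 called, bars the gene bodies and grey lines the stretch searched. Most filled circles lie past the right end of the gene bodies, 1 lies in Trf, and Hamp and Hfe have no symbol.

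Hamp, which encodes hepcidin, had no GATA4 peak within 50 kb in any of the 3 lists. The gene (chr7:31727390-31729036, minus strand, mm9) lay 112042 bp from the nearest OS, which was upstream and had position 1151, and the nearest MACS2 peak was 111963 bp away. The stretch of 250 bp before the gene start is shown because it holds the elements through which the gene is known to answer to bone morphogenetic proteins and to interleukin 6, and it also holds a WGATAR match. It is chr7:31729037-31729286, read on the minus strand so that the gene start follows its last base, and capitals mark, from left to right, the complement of AGATAA, the bone morphogenetic protein element GGCGCC, and a match of the STAT form TTCNNNGAA.
Hamp upstream: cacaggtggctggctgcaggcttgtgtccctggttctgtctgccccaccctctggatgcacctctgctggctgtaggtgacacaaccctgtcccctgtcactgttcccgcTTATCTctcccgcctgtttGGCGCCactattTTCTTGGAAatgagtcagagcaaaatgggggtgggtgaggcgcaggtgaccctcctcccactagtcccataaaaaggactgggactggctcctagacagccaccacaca
The WGATAR match ran from base -140 to base -135 relative to the gene start, GGCGCC from -121 to -116 and the STAT form from -109 to -101. In the same 250 bp, 25.2% of protein-coding genes had WGATAR on either strand, 11.1% had GGCGCC and 6.83% had TTCNNNGAA. A WGATAR match in this window is thus frequent among genes, and at Hamp it came with no called peak. The paper cites earlier work in which GATA4 activated the hepcidin gene in hepatoma cell lines, which were not used here.

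Hfe2 encodes hemojuvelin, the coreceptor through which bone morphogenetic proteins act on Hamp. The gene (chr3:96329108-96333139, plus strand) had no OS in its body or within 10 kb, and its 3 OS lay together 39645 bp, 47049 bp and 48904 bp downstream of its start. The first 2 midpoints were 7404 bp apart and the last 2 were 1855 bp apart. All 3 OS were intergenic, and 5 other protein-coding genes had a start nearer to each. The nearest start was that of Txnip, an arrestin-like protein that binds thioredoxin, for the OS at position 1230 (6870 bp), and that of the predicted gene Gm16253 for the OS at positions 2541 (4750 bp) and 1025 (2895 bp). One more OS of the cluster, position 70, lay 1057 bp past the limit of 50 kb. It stood earlier in the common list than any OS assigned to the set, and its nearest start was likewise that of Gm16253 (3289 bp). The OS at position 1025 had 2 WGATAR matches, at -14 and +22 bp from its midpoint. That at position 2541 had 1, TGATAA, 24 bp from the midpoint. That at position 1230 had none in its 216 bp. The MACS2 peak over it was 1341 bp wide and held an AGATAA 18 bp from its own midpoint.

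Hfe and Tmprss6 act on the same branch. HFE associates with transferrin receptor 2 when transferrin is loaded with iron, and Tmprss6 encodes matriptase 2, a protease that cleaves hemojuvelin and so lowers Hamp transcription. Hfe (chr13:23793903-23802723, minus strand) had no peak of any list within reach, and its nearest OS, position 509, lay 126057 bp upstream. A peak that only the SPP list held lay somewhat closer, at 109479 bp. Tmprss6 (chr15:78270098-78299064, minus strand) was 272924 bp from its nearest OS, the longest such distance of the 10 genes. The MACS2 list, however, had a peak inside it, chr15:78279257-78280655, in intron 10 and 19108 bp from the gene start. This peak stood late in that list, at position 5047 of 5867, and overlapped no OS of the SPP list. It held 4 WGATAR matches and 10 GATA. A stretch of 60 bp, chr15:78280202-78280261 on the plus strand, is shown because 2 of those matches directly follow each other there.
Tmprss6 MACS2 position 5047: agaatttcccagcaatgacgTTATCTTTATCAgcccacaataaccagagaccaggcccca
The pair lay 269 bp and 275 bp from the midpoint of the peak, and another match lay 57 bp from the midpoint.

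Transferrin receptor 2, encoded by Tfr2 (listed under the older symbol Trfr2, chr5:138011079-138028709, plus strand), senses iron-loaded transferrin on hepatocytes. Its 1 OS, chr5:138070213-138070364 at position 1958, lay 41579 bp past the 3′ end of the gene. The midpoint was 58 bp from the start of Fbxo24, an F-box protein gene, and 7 other protein-coding genes had a start closer to it than Tfr2 had. The OS held neither WGATAR nor the 4 bases GATA in 152 bp, and the MACS2 peak over it, 1400 bp wide, held neither as well. Of the 4409 OS, 93.4% held GATA, so this OS was among the few without it.

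The genes for uptake and transport of iron in plasma are Tfrc and Trf. Tfrc encodes transferrin receptor 1, which brings transferrin into cells, and lies at chr16:32609006-32632880 on the plus strand. Its 1 OS, position 3975 at chr16:32645449-32645768, lay 12728 bp past the 3′ end of the gene and in intron 1 of Tnk2, a tyrosine kinase gene whose start was 696 bp away. It had WGATAR at -93 and +21 bp from the midpoint. MACS2 called a further peak in the same intron, 42424 bp from the Tfrc start, with 3 WGATAR matches. Tfrc itself had 4 WGATAR matches in the 1000 bp upstream of its start and no peak there, and 77.1% of protein-coding genes had at least 1 match in that window.

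Trf encodes transferrin, the iron carrier of plasma that hepatocytes secrete, and was the gene with GATA4 peaks closest to its start. It lies at chr9:103106331-103132774 on the minus strand. The OS at position 2790, chr9:103130720-103131039, had its midpoint in intron 1, 1895 bp downstream of the gene start and 107 bp from the start of a shorter Trf transcript. Its AGATAA lay 10 bp from the midpoint, the smallest such distance among the 13 OS. The second OS, position 2384 at chr9:103151188-103151306, lay 18473 bp upstream of Trf and 17308 bp from the start of 1300017J02Rik, with 1 AGATAG at -26 bp. MACS2 called another peak across the Trf start, with its midpoint 8 bp upstream. It stood at position 5789 of 5867, overlapped no OS of the common list, and held 1 TGATAA at 108 bp from its midpoint. That match began at base -118 from the gene start, and Trf and Hamp were the only genes of the set with WGATAR within 250 bp upstream.

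Slc40a1 encodes ferroportin, the iron exporter that hepcidin controls, and had the OS that stood first in the common list among those of the set. It lies at chr1:45964915-45982439 on the minus strand. The OS at position 72 lay 9810 bp past the 3′ end of the gene, and the OS at position 969 lay 2789 bp past it, so that the pair was 7021 bp apart. No other protein-coding gene had a start nearer to either, the Slc40a1 start being 27334 bp and 20313 bp away. MACS2 called both, at positions 512 and 1573 of its own list. Position 72 held AGATAA at -56 bp and TGATAA at +20 bp from its midpoint, on the minus strand in both cases. Position 969 held AGATAA at -66 bp. The FOXA forms TGTTTAC and TGTTTGC, on either strand, occurred in both of these OS, 1 time in the first and 2 times in the second, and in 12.2% of all OS. FOXA factors are pioneer factors of liver, and a match of the letters does not show their binding. The third OS, position 3676 at chr1:45917393-45917493, was 101 bp wide, the narrowest of the 13, and lay 47472 bp past the 3′ end. It held no GATA. Its distance to the Slc40a1 start was 64996 bp, and a non-coding transcript of Wdr75 started 45920 bp from it. The MACS2 peak over it, 636 bp wide, held 1 AGATAA at -15 bp from its own midpoint.

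The ferritin heavy and light chains, encoded by Fth1 and Ftl1, form the shell in which cells store iron. Fth1 (chr19:10057193-10059582, plus strand) had 3 OS. One, at position 2513, lay 5392 bp upstream of the gene start, with Fth1 as the nearest gene. It had no WGATAR, and besides its gataa it held 1 match each of a FOXA form, of TGACNNNGC and of CGGAAG, letters bound by FOXA, NRF2 and ETS factors. TGACNNNGC occurred in 2 of the 13 OS, both at Fth1, and in 10.9% of all OS, while CGGAAG occurred in 1 of the 13 and in 10.2% of all OS. NRF2 is a known inducer of ferritin genes through upstream elements of this form, and a match of the letters does not show its binding. The other 2 OS at Fth1, positions 2458 and 961, were 40893 bp and 42945 bp downstream and 2052 bp apart. Both were in intron 1 of Rab3il1, a gene for a Rab3 interacting protein, with its start 5331 bp and 7383 bp away. Position 961 held TGATAA at -25 bp, and position 2458 held no WGATAR. Position 961 also overlapped the MACS2 peak at position 392, the earliest MACS2 position among the 13.

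Ftl1 (chr7:52713314-52715254, minus strand) had no OS within reach, but missed it narrowly. The OS at position 1930 lay 50692 bp upstream, 692 bp outside the limit, and 170 bp from the start of Nucb1, a calcium-binding Golgi protein gene. MACS2 alone called a peak 28996 bp upstream of Ftl1, at position 5590 of its list and 75 bp from the start of Dhdh, with neither WGATAR nor GATA. The OS nearest to a ferritin gene was thus the one 5392 bp upstream of Fth1.

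The common list was made from SPP peaks that intersect the MACS2 list. By construction, then, all 13 OS carried their SPP coordinates and overlapped a MACS2 peak, which was 1 peak for each. The MACS2 list had 18 peaks at 8 of the 10 genes, against 33.9% of protein-coding genes with a MACS2 peak within 50 kb. The 5 peaks without an OS were at Hfe2, Tmprss6, Tfrc, Trf and Ftl1, and all but the 1 at Tfrc (position 3916) stood between positions 5047 and 5789 of 5867. Tmprss6 and Ftl1 had a peak in this list alone.

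**Figure D2:**
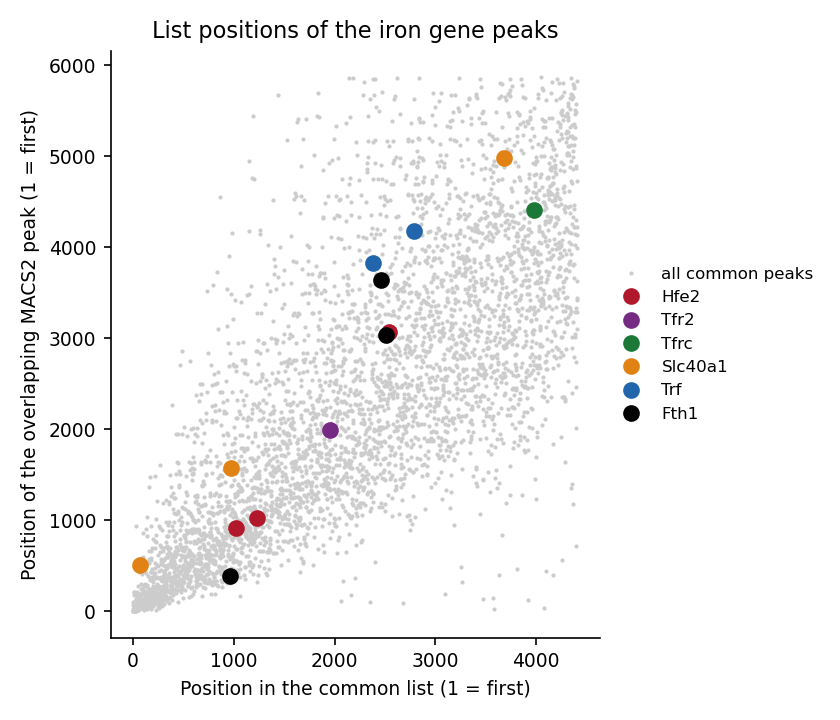
Position of each of the 4409 OS in the common list (x axis, 1 is first) against the position of the first MACS2 peak that overlaps it (y axis), with all OS in grey and the 13 OS at the iron genes coloured by gene. The coloured points run from position 72 to 3975 on the x axis and from 392 to 4983 on the y axis, with no grouping at either end.

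The median of each of list position, width and base composition over the 13 OS lay between the quartiles of all OS. Their median position was 2384 (range 72 to 3975) against 2205 for all OS, whose quartiles were 1103 and 3307. By the position of the overlapping MACS2 peak they stood later, with a median of 3037 (range 392 to 4983) against 2195 for all OS, whose quartiles were 1081 and 3463. In the first 1000 positions lay 3 of the 13 (23.1%) and 22.7% of all OS. Widths ran from 101 to 320 bp with a median of 216 bp, compared with 190 bp over all OS, and 4 of the 13 had the width of 320 bp that 25.6% of all OS shared. GC content had a median of 50.5% (range 40.6% to 60.1%), against 49.4%. The distance to the nearest protein-coding start had a median of 5392 bp (range 58 to 64996 bp). Over all OS it was 17456 bp, with quartiles of 4163 and 50375 bp. The rule chose the 13 OS for their closeness to a protein-coding gene, so this distance is not independent of the choice. Of all 4409 OS, 3839 lay in the bodies of protein-coding genes or within 50 kb of them. The shorter distance is thus no result about the 13 OS, and it was not tested. Within 1000 bp of a protein-coding start lay 3 of the 13, and 14.8% of all OS.

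At least 1 WGATAR match lay in 8 of the 13 OS, a share of 61.5% with a Wilson 95% interval from 35.5% to 82.3%. For all 4409 OS the number was 3655, or 82.9% (81.8% to 84%). The upper bound for the 13 lay just under the share of all OS. The interval treats the OS as independent, though some are neighbours, as positions 2541 and 1025 at Hfe2, 1855 bp apart. It is thus no test of a difference. With the 5-base forms WGATA or GATAR the share was 76.9% (49.7% to 91.8%) against 92.9%. With GATA it was 84.6%, with an interval of 57.8% to 95.7% that covers the 93.4% of all OS. Of the 5 OS without WGATAR, 3 held GATA in another context (Hfe2 at position 1230, Fth1 at positions 2458 and 2513) and 2 held none (Tfr2 at position 1958, Slc40a1 at position 3676). In the wider MACS2 peaks over these 5, WGATAR was found at Hfe2 position 1230 and Slc40a1 position 3676.

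The 8 OS held 11 matches. AGATAA made up 5 of them, AGATAG 3 and TGATAA 3, with no TGATAG. Over all OS the shares of the 5734 matches were 44.6% AGATAA, 17.5% AGATAG, 26.8% TGATAA and 11% TGATAG. Within 25 bp of the midpoint lay 7 of the 11 matches, and 46.8% of the matches over all OS. Matches away from the centre were at Slc40a1, Tfrc and Trf, with the furthest at -93 bp in the OS at Tfrc.

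**Figure D3:**
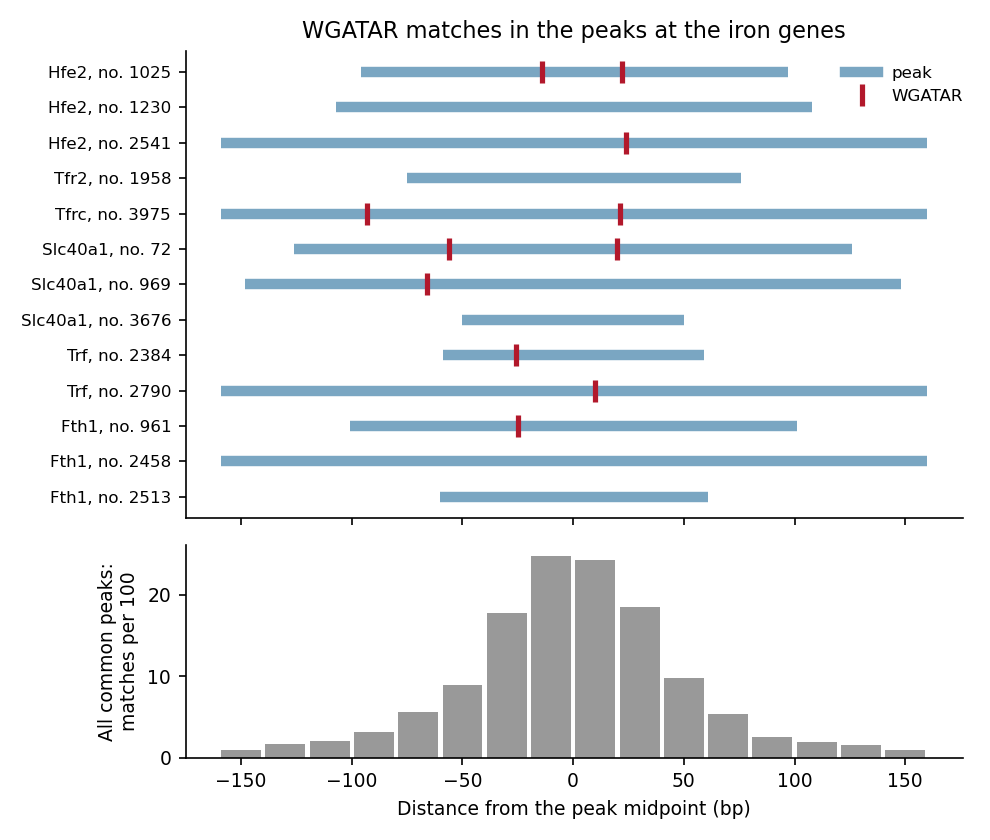
Upper panel, the 13 OS at the iron genes (bars, named by gene and list position) with each WGATAR match as a vertical mark against the distance from the peak midpoint in bp. Lower panel, WGATAR matches per 100 OS over all 4409 in bins of 20 bp, which fall from 24.8 next to the midpoint to 0.998 at the left edge, where many OS have ended. In the upper panel 7 of 11 marks lie within 25 bp of the midpoint and 5 bars have none.

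Of the other motifs searched on both strands, the E-box CANNTG was in 7 of the 13 OS (53.8%) and 60.3% of all OS, the FOXA forms in 3 (23.1%) and 12.2%, and the C/EBP form TTGCNNAA in 1 and 12.7%. The AP-1 form TGANTCA, the STAT form TTCNNNGAA and GGCGCC were in none of the 13, and in 7.55%, 7.69% and 3.49% of all OS. With 13 OS, a count of 0 has an upper Wilson bound of 22.8%, which covers all of these shares. The bone morphogenetic protein and STAT forms seen upstream of Hamp were thus not found in the OS at the other iron genes.

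The wider pathway was counted by the same rule over 64 further iron genes. Of these, 30 (46.9%) had an OS within 50 kb, against 27.7% of protein-coding genes. Genes that control hepcidin had 13 of 23 (56.5%), with 33 OS in all, and 11 of the 23 were the gene with the nearest start. Their bodies had a median of 43839 bp, against 13173 bp for the set of 10. The share over all genes of like length was not computed, and a part of gene length in these counts was not tested. In the order of their first OS they were Gdf15 (position 156), a cytokine of the transforming growth factor family, Atoh8 (198), a transcription factor that acts on Hamp, Smad6 (314), an inhibitor of bone morphogenetic protein signalling, Creb3l3 (443), a hepatocyte stress factor, Il6ra (587), the receptor of interleukin 6, Acvr1 (883), a receptor of bone morphogenetic proteins, Bmp2 (943), their ligand, and Smad5 (1236), their signal transducer. The first OS of Gdf15, Atoh8 and Il6ra lay 41265 bp, 73315 bp and 77572 bp from their starts, and the start nearest to it was that of Lsm4, St3gal5 and She, respectively. Smad6 had 8 OS, the most of this list, and was the nearest gene to each. Bmp6, the ligand that rises with liver iron, was picked out after the values were seen. It had 3 OS, all in its body, with the first at position 1702 in intron 1 and 8926 bp from its start.

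Genes of iron and heme-carrier uptake had 4 of 14 (28.6%), close to the 27.7% of protein-coding genes. They were Slc39a14 (position 212), Lcn2 (981), Slc39a8 (1628) and Slc11a1 (2018). Slc39a14 encodes the transporter by which hepatocytes take up iron not bound to transferrin, and its first OS lay 2163 bp upstream of its start with 3 WGATAR matches. At Lcn2, a carrier of iron-binding siderophores, and at Slc11a1, a phagosome metal transporter, another gene had the nearer start. In the group for plasma oxidation and scavenging 1 of 5 genes (20%) had an OS, against the same 27.7%. The gene was Cp, the ferroxidase ceruloplasmin, with position 841 at 2907 bp upstream of its start.

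Iron sensing, storage and chaperone genes had 3 of 9 (33.3%), near the 27.7% of protein-coding genes. They were Fbxl5 (position 1117), Aco1 (2218) and Pcbp4 (2379), of which Aco1, the iron regulatory protein 1, had its OS in intron 1 and was the nearest gene, while Cd38 and Acy1 had the nearer start at Fbxl5 and Pcbp4. Genes of mitochondrial iron and of iron-sulfur clusters had 9 of 13 (69.2%), against 27.7% of protein-coding genes. This was the highest share of the 5 iron lists, and their median body was 16392 bp. By position they included Isca2 (184), Glrx5 (594), Slc25a37 (792), Lyrm4 (2873), Slc25a28 (2899), Nfs1 (3564) and Isca1 (3653). The OS lay 174 bp, 334 bp and 564 bp upstream of the starts of Isca2, Glrx5 and Isca1, all assembly factors of iron-sulfur clusters, and at Isca2 the start of Npc2 was nearer. Another gene also had the nearer start at Lyrm4 (Ppp1r3g) and Nfs1 (Rbm39). Slc25a37, mitoferrin 1, had 3 OS with the first in intron 1. These lists were described and not tested, and their genes are not independent of each other.

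**Figure D4:**
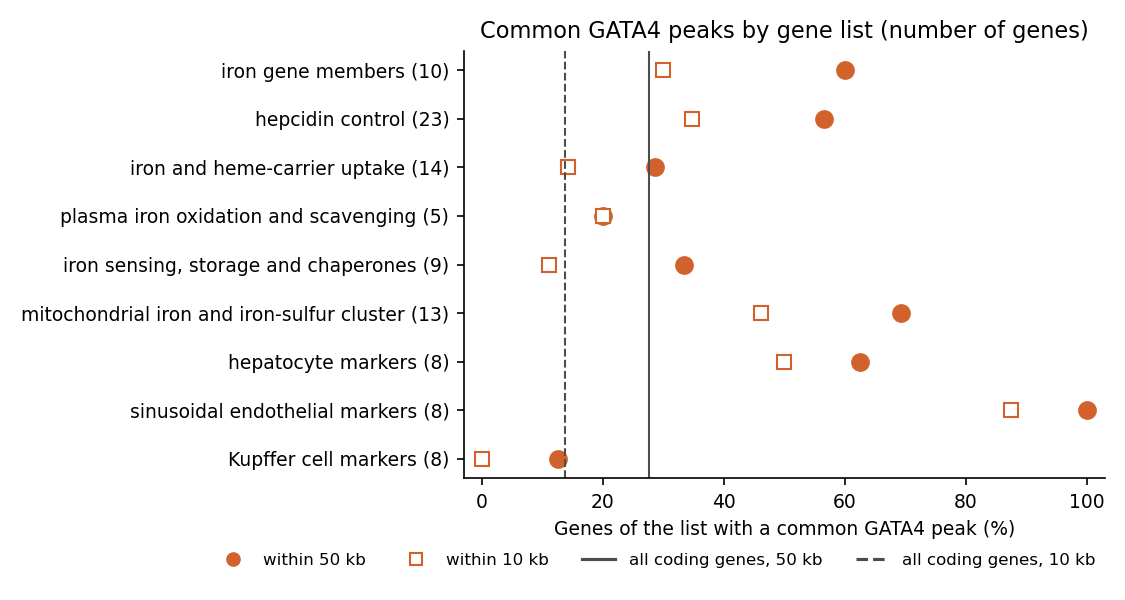
Percent of the genes of each list with at least 1 common OS (x axis), within 50 kb (filled circles) and within 10 kb (open squares), with the number of genes in brackets. The vertical lines mark protein-coding genes, 27.7% at 50 kb (solid) and 13.7% at 10 kb (dashed). The 10 iron genes stand at 60% and 3 of 10, above the uptake genes at 28.6% and below the mitochondrial genes at 69.2%.

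Because the tissue is mixed, marker genes of its cell types were counted in the same way. OS lay at 8 of 8 sinusoidal endothelial markers, with 20 OS, and at 5 of 8 hepatocyte markers, with 8 OS. They also lay at 1 of 8 Kupffer cell markers, Cd68, from whose start the OS was 49904 bp away. By this rule 27.7% of protein-coding genes had an OS. The endothelial markers were also long genes (median body 44255 bp), and the hepatocyte markers were not (11788 bp). The share over all genes as long as the endothelial markers was not computed. Among hepatocyte markers Alb had 3 OS and Apoa1, Serpina1a and Tat had none. Of the genes described here Hamp, Hfe2, Tfr2, Tmprss6 and Trf are known in liver chiefly from hepatocytes, and Bmp2 and Bmp6 chiefly from endothelial cells, while Slc40a1 is used by hepatocytes and Kupffer cells alike. The part of each cell type in the OS at these genes was not tested.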

How the data were processed

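GATA4 ChIP-seq of whole mouse liver was compared with input DNA. The authors aligned reads to mm9 (Bowtie 0.12.7 in the submitters' processing notes), called peaks with SPP and MACS2 (2.0.10) over both replicates, set cut-offs by reproducibility, and intersected the lists with bedtools (2.16.1), keeping SPP coordinates. The deposited peaks are positions with a score, which the authors set to 1000 throughout. The lists held 4409 common, 4811 SPP and 5867 MACS2 peaks. The paper gives the number of reads of each library, but the lists give no counts, so the depth at each site is unknown. Intervals cover counting error only.

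Peak midpoints were set against GENCODE M1 gene bodies (37310 genes, 22380 protein-coding) with pysam 0.24.0, samtools 1.23.1 and Python 3.11.15. Trf used its own model without the read-through model. Coordinates are 1-based. Overlap meant at least 1 bp. Motifs were exact matches on both strands. The window, place and motif code was checked on simulated data. The members and lists were chosen with earlier results of these data known. All 10 members and their OS were named. Of other lists, at most 8 genes with an OS were named, in order of first position, and 1 item that this order would name is not reported here. Alternatives varied reach, list, gene model, motif and window.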

Additional observations from a re-analysis of the deposited data

How the results depend on the processing

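With the replicates not separated and no peak heights, the precision of a single OS is unknown, and reach decides most counts. The 13 OS at the 10 genes became 4 within 10 kb, 22 within 100 kb, 1 in the gene body and 5 by nearest start, and the 6 genes became 3, 1 and 3 at 10 kb, in the body and by nearest start. The 30 other iron genes became 18 at 10 kb and 13 in the body. The share of all genes with an OS, 23.1%, was 10.1% at 10 kb, 34.4% at 100 kb, 5.09% in the body, 24.4% with SPP, 28.5% with MACS2, 27.6% with protein-coding transcripts, 21% around start sites alone and 12.3% by nearest start. Chosen after seeing the data, it was 27.7% for protein-coding genes and 24.4% for those no longer than the longest of the set, and the read-through model of Trf added no OS. WGATAR in all OS, 82.9%, was 74.3% in the central 100 bp, 89.6% in 500 bp, 92.9% with 5-base forms and 90.3% in MACS2 peaks. The nearest peak lay at 39220 bp (Hfe2), 19108 bp (Tmprss6), 58919 bp (Tfr2) and 28996 bp (Ftl1) with MACS2 and at 109479 bp (Hfe) with SPP. From any Tfrc transcript start it lay at 21080 bp, and from protein-coding ones at 36272 bp. The share of OS at the 10 genes with WGATAR stayed within its interval, and a 10 kb reach does not apply to the share over all OS. In 51 other recalculations the value stayed within 1.5 times a count, within the interval of a share or within the width of the peak. No paired analysis was possible because the lists do not separate the replicates.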
